A study of Mus musculus with 8 samples.

Results

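CTCF binding was followed at 9 genes that encode transcription factors of mesenchymal cells: Prrx1, Prrx2, Twist1, Twist2, Snai1, Snai2, Zeb1, Zeb2 and Tcf21. Their windows, each gene body in the GENCODE vM1 annotation with 20 kb on either side, held the centres of 47 of the 104008 CTCF sites mapped in mouse embryo fibroblasts. After loss of Ash2l, CTCF reads at the site on the start of Prrx1 fell to 0.467 of their level in vehicle-treated cells. A site in the Prrx2 window, in an intron of the neighbouring gene Asb6, fell to 0.531. These 2 sites stayed lower under every other way of processing that was tried. The other 5 sites that passed the test near Prrx2, Snai1 and Snai2 carried 0.647 to 0.780 of the vehicle level, though 3 of these changed sign under another scaling. In the Prrx2 window the 4 sites that passed lay nearer to the starts of neighbouring genes than to those of Prrx2. The sites within 3000 bp of the genes' own transcription start sites (TSS) had negative changes in every case under the scaling used, as most promoter sites of other genes did. Of 45 tested sites 1 was gained past 2-fold, beside 3.89% of all tested sites, and 2 were lost, beside 1.50%, and 2 of these 3 calls ended when any 1 library was left out. The gene windows of Twist1 and Twist2 had summed reads that differed by less than the spread between libraries.

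The cells were of 1 line, iMEF2, of fibroblasts from mouse embryos that had been immortalised with an shRNA against p19Arf. Both groups carried floxed Ash2l alleles and Cre-ER, a recombinase that is held inactive until 4-hydroxytamoxifen binds its receptor part. The +HOT cells received 5 nM 4-hydroxytamoxifen for 7 days, which removes exon 4 of Ash2l, and the -HOT cells received ethanol as vehicle. Ash2l is needed by the KMT2 methyltransferases for their activity on lysine 4 of histone H3. Cells with Cre-ER but intact Ash2l alleles were not among the samples, so an effect of 4-hydroxytamoxifen or of Cre cannot be told apart from that of Ash2l. By the study's account these fibroblasts also stop proliferating when Ash2l is lost, and the arrest cannot be told apart from the loss of the protein either. Of 8 samples, 4 were CTCF immunoprecipitations, 2 for each treatment, and 4 were inputs, which were not analysed here.

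By the study's account the libraries were technical replicates, and p-values cover the spread among libraries of 1 line and no more. The deposited columns number them R1 and R3. They held 4221752 and 3126722 reads in sites for -HOT and 9280701 and 7653295 for +HOT, so values in -HOT rest on fewer reads. Normalised reads are counts scaled to a library of average size, and log2FC is the log2 fold change of +HOT over -HOT from the quasi-likelihood test of edgeR, with its standard error (SE). Gained sites had a log2FC above 1 and lost sites one below -1, each with an adjusted p under 0.05. Sites past that p at any fold are called higher or lower. Expression was not measured in these files, so the fibroblast identity of the cells could not be checked against marker genes. A change in reads at a site was not set against input DNA.

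The factors belong to a few families. Prrx1 and Prrx2 are paired-type homeodomain proteins of limb bud and craniofacial mesenchyme. Twist1, Twist2 and Tcf21 are basic helix-loop-helix proteins that bind E-box sequences together with E proteins, and Tcf21 is known from the mesenchyme of kidney, lung and the epicardium. Snai1 and Snai2 are zinc finger repressors of epithelial genes such as Cdh1, and Zeb1 and Zeb2 are repressors with zinc finger clusters on either side of a homeodomain, held down in epithelia by the miR-200 family. CTCF is a zinc finger protein that recognises a long motif, stops cohesin as it extrudes chromatin loops, and is also found at many promoters.

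The sequences that the results turn on are shown in 3 sets, which do not take in every site. The 5000 strongest sites of the table gave a CTCF matrix 20 positions long, and its consensus read NNNGCCACNAGGGGGCGCNN, with N where no base reached 50%. A match above a threshold that 5% of shuffled site sequences passed was present in 72.3% of the 47 sites and in 86.9% of all sites. The first set held a match that occurred at no other site of the table. Each line gives 40 bases of mm9 on the strand of the match, 5′ to 3′, with the 20 matched bases in capitals, for the site with the most reads of Prrx2, Twist1, Twist2, Snai1 and Snai2, for the Snai2 promoter site, for the gained site at Zeb2 and for the Asb6 intron site, which stayed lower under every other way of processing that was tried.
Prrx2 window, Asb6 promoter (chr2:30683861-30683900): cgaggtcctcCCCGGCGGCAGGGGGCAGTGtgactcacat
Prrx2 window, Asb6 intron (chr2:30683080-30683119): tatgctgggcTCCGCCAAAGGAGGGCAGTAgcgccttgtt
Twist1, upstream (chr12:34637871-34637910): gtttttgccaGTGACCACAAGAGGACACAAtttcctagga
Twist2, intron (chr1:93715986-93716025): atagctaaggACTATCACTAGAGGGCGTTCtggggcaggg
Snai1, own promoter (chr2:167363451-167363490): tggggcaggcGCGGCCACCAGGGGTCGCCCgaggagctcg
Snai2, upstream (chr16:14701570-14701609): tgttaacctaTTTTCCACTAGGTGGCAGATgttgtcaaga
Snai2, own promoter (chr16:14705577-14705616): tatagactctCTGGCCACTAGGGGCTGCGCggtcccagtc
Zeb2, downstream flank (chr2:44828219-44828258): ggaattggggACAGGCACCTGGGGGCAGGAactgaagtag

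The second set held a match that many other sites of the table hold letter for letter. The match in the intronic and promoter sites of Prrx2 was present in 3 Prrx2 sites, 1 Zeb1 site and 6715 sites of the table in all, or 6.46% of it. Of these 6715 sites, 6333 were tested, 50 were gained and 61 lost, with a median log2FC of -0.067. As background, B2 elements, a family of short interspersed repeats of rodents, are known to carry CTCF motifs, but the repeat class of these sites was not looked up here. Their values are uncertain as far as reads were shared between copies, which was not tested.
Prrx2, 1434 bp upstream of a TSS (chr2:30699126-30699165): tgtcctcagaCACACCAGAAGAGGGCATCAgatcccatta
Prrx2, intron (chr2:30696810-30696849): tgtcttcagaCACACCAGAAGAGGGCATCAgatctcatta
Prrx2, downstream flank (chr2:30741085-30741124): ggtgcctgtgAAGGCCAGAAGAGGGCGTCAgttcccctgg
Twist2, intron 6512 bp from the TSS (chr1:93704548-93704587): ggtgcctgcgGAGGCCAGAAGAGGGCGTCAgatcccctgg
The match in the downstream flank of Prrx2 was shared by 36 sites and that in the Twist2 intron by 203.

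The third set had no match and lay close to a TSS of the gene itself, which for Zeb2 was an internal TSS. Of the 13 tested sites without a match, 7 were within 3000 bp of an own TSS and 6 were elsewhere, among them the lost Twist2 site, and those 6 are not shown. Of the 7, only the 3 that passed the test are shown. The own-start sites of Twist1 and Zeb1 and the weaker Zeb2 promoter site, which did not pass, are left out. For each site shown, 100 bases at its centre are shown on the gene's strand, with every CpG in capitals, since the lost Prrx1 site and the lower sites of Twist2 and Zeb2 were of this set.
Prrx1, own promoter (chr1:165243630-165243729): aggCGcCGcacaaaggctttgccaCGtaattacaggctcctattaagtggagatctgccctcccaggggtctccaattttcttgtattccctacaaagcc
Twist2, own promoter (chr1:93698399-93698498): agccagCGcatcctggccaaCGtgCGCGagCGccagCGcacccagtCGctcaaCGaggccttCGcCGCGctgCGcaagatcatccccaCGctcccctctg
Zeb2, own promoter (chr2:44968572-44968671): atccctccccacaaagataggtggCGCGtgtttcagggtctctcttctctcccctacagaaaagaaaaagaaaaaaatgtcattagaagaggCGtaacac
The Twist2 stretch held 13 CpG and each of the others 3. The Twist2 and Zeb2 sites were CpG-island-like, that is, their central 500 bp exceeded 50% GC and a ratio of 0.6 between the CpG counted and the CpG that base composition predicts. The Prrx1 site was not, with a GC content of 52.2% and a ratio of 0.356.

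The windows together covered 852 kb and differed widely in how many sites they held. Prrx2 had 15 sites, Zeb1 8, Prrx1, Twist2 and Snai1 5 each, Zeb2 4, Twist1 and Snai2 2 each, and Tcf21 1. Per 100 kb of window this ranged from 2.30 at Zeb2 to 17.4 at Prrx2, beside a median of 6.76 and quartiles of 2.76 and 11.3 over all protein-coding genes. The sites lay inside the gene bodies in 24 cases and in the flanks in 23. Of the 47 sites, 14 lay within 3000 bp of a TSS of their own gene, and 15 were nearest to the TSS of another gene, chiefly Asb6, Mettl11a and Ptges around Prrx2. The nearest sites left out by the limit of 20 kb lay 21.8 kb from Prrx1 (log2FC 0.025), 23.1 kb from Snai1 (-0.45) and 24.8 kb from Twist1 (0.17).

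**Figure D1:**
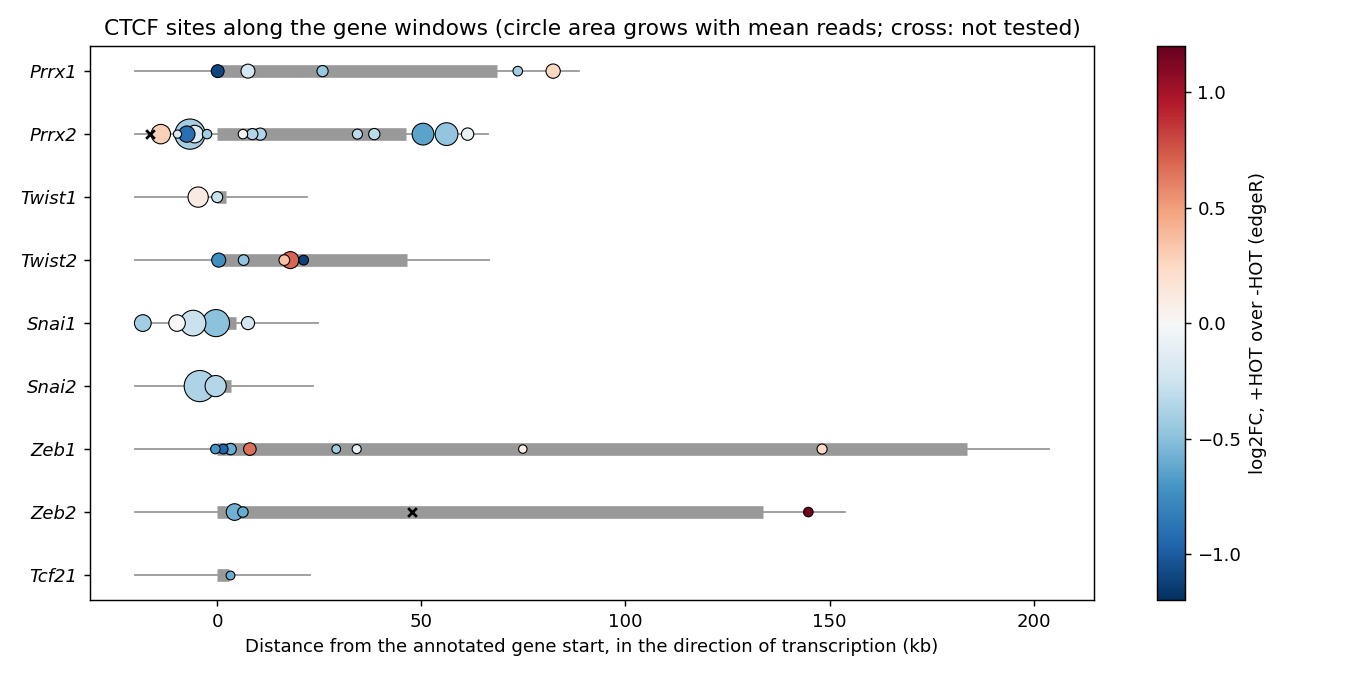
Distance of each CTCF site from the annotated start of its gene in kb along the direction of transcription, with the gene body as a thick bar and the 20 kb flanks as a thin line. Circle colour is log2FC, circle area grows with mean normalised reads, and crosses mark the 2 sites that were not tested; the sites at the gene starts are blue, and the 1 gained site lies beyond the 3′ end of Zeb2.

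The site counts allowed a test at 45 of the 47 sites, the exceptions being a site in the Mettl11a intron near Prrx2 and an intronic Zeb2 site, with about 10 mean normalised reads each. Of the 45, 1 was gained, beside 3.89% of all 99560 tested sites, and 2 were lost, beside 1.50%. Counted at the adjusted p alone, 2 sites were higher, beside 9.45% of all sites, and 10 were lower, beside 9.08%. The +HOT libraries were both above the -HOT libraries at 6 sites, beside 29.6% of all sites, and both below them at 23, beside 27.2%. The median log2FC was -0.36 (quartiles -0.49 and -0.079), and that of all tested sites 0.0088. Under each of the other scalings and filters the median of the 9 genes' sites lay between 0.30 and 0.38 below that of all sites. The members were chosen by gene and their windows overlap other genes, so this is a description of 45 sites with no test.

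**Figure D2:**
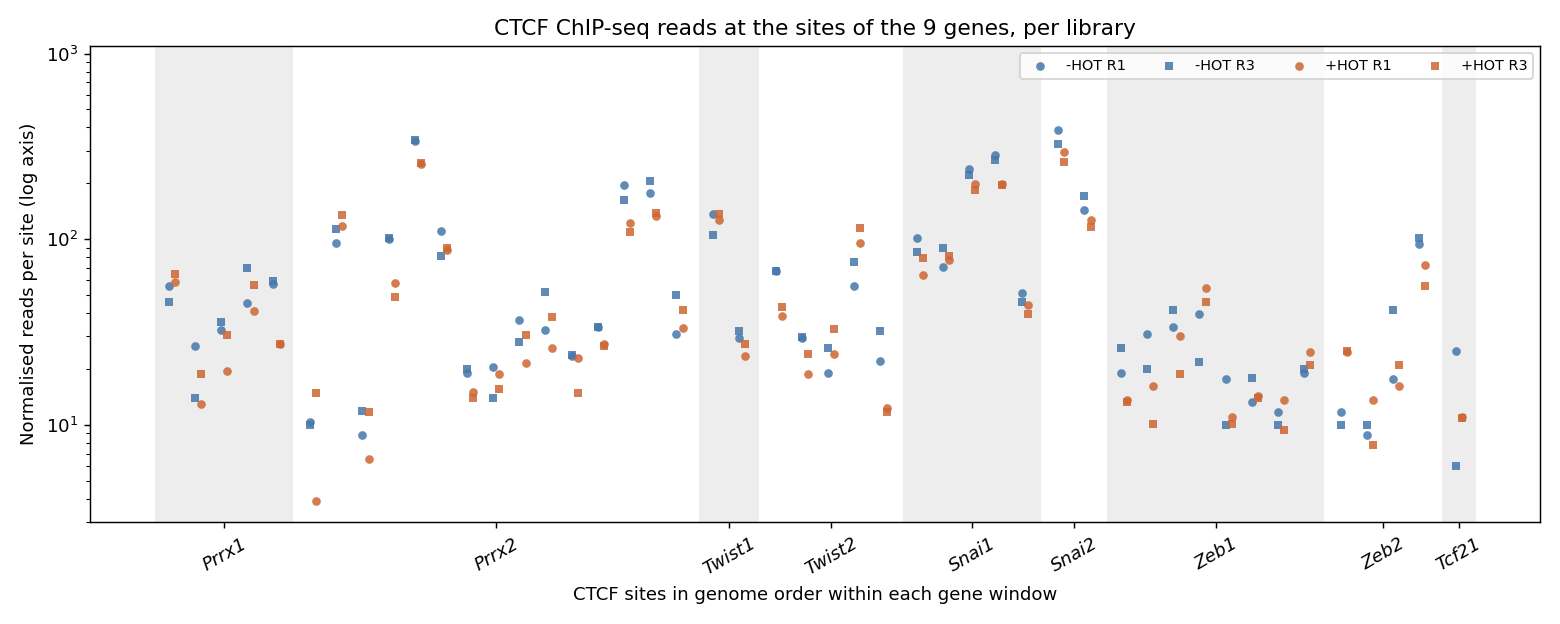
Normalised reads per site (log axis) in each of the 4 libraries for the 47 sites, grouped by gene in genome order, with -HOT in blue and +HOT in orange. The strongest sites, near Prrx2, Snai1 and Snai2, have all +HOT points below all -HOT points, while the sites below about 20 reads show wide spread between libraries.

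Position relative to the gene start went with the direction of change. All 14 sites within 3000 bp of an own TSS had a negative log2FC (median -0.53), of which 1 was lost, beside 6.01% of all promoter sites, and 4 were lower in all, beside 24.0%. With scaling along site strength and GC the number that were negative was 11, the exceptions being sites of Snai1, Twist1 and Prrx2. Without -HOT replicate 3 it was 13. The other 31 tested sites had a median of -0.21, with 21 negative. Among all genes, 12250 of 17077 promoter sites (71.7%) were negative, with a median of -0.28, so a lean to lower values at promoters was shared by the table as a whole. CpG-island-like sites made up 17.8% of the 45 sites and 5.09% of all tested sites. Their median log2FC was -0.53 at the 9 genes, over 8 sites, and -0.45 over all 5065. A motif match was present in 7 of the 14 own-promoter sites and in 80.2% of all promoter sites.

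**Figure D3:**
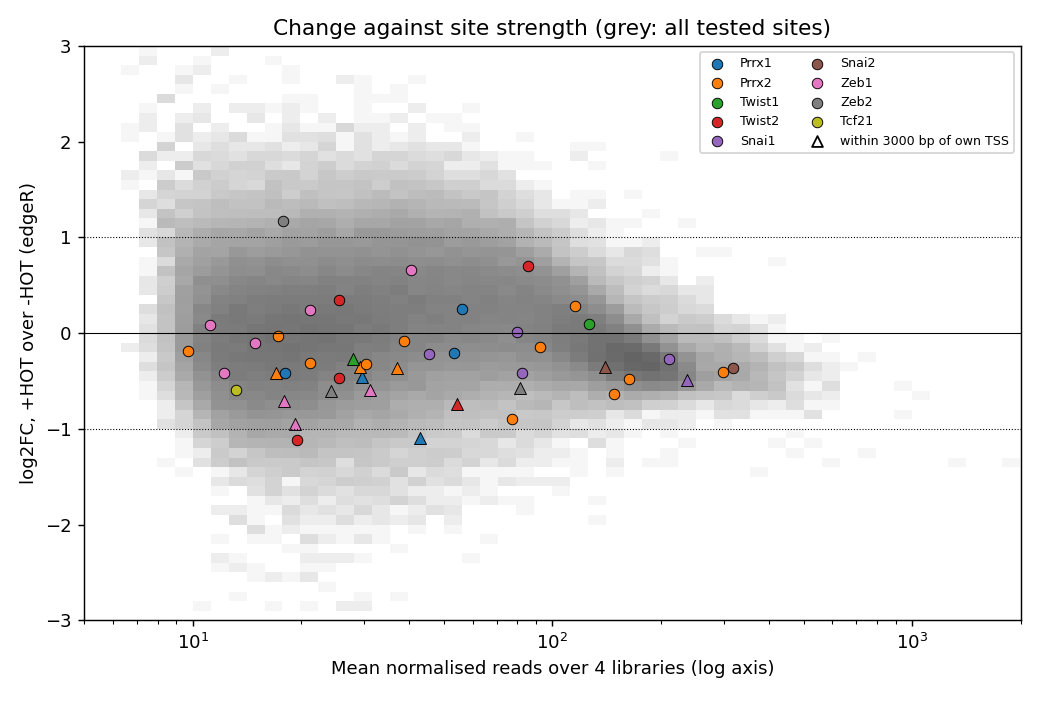
log2FC from edgeR against mean normalised reads over the 4 libraries (log axis), with all tested sites as grey density and the 45 sites of the 9 genes in colour; triangles mark sites within 3000 bp of an own TSS. All 14 triangles lie below 0, and at the right the grey density itself slopes below 0.

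Site strength also moved with the values. Tested sites with 160 or more mean reads had a median log2FC of -0.32 over the whole table (9305 sites), and those with 40 to 80 reads one of 0.26 (17768 sites). The 5 strongest sites of the 9 genes, with a median of -0.41, therefore lay close to other sites of their strength, whereas the 8 sites with 40 to 80 reads had a median of -0.21. What part the slope with strength has in the values of single sites was not tested, but values with that slope removed are given beside the sites whose call they altered.

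Prrx1 (chr1:165175247-165243841, minus strand) had the clearest change of the 9 genes. Its promoter site at chr1:165243520-165243839 lay over the untranslated region of Prrx1, with the centre 120 bp downstream of a TSS. It held 57.4 (R1) and 59.7 (R3) normalised reads in -HOT, against 27.3 in each +HOT library. Both +HOT libraries lay far below either -HOT library, and the libraries of each group nearly coincided. The log2FC was -1.09 (SE 0.26, edgeR adjusted p = 0.00167). The site was called lost under all 12 alternative settings, with log2FC from -1.30 to -1.04. All tested sites of 40 to 80 reads had a median of 0.26, whereas all promoter sites had one of -0.28, with 6.01% of them lost.

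The other 4 Prrx1 sites did not pass the test. The strongest of them, at chr1:165161346-165161757, lay in the 3′ flank and held 55.9 and 45.8 reads in -HOT and 58.6 and 64.7 in +HOT, which gave a log2FC of 0.25 (edgeR adjusted p = 0.497). A site within 1350 bp of an internal TSS had 32.4 and 35.8 reads in -HOT and 19.5 and 30.4 in +HOT, all +HOT values below all -HOT values, with a log2FC of -0.46 (edgeR adjusted p = 0.353). The remaining pair had log2FC of -0.42 and -0.21 and overlapping groups.

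Prrx2 (chr2:30690492-30736761, plus strand), the partner of Prrx1 in limb and skull development, had the densest window. Of its 14 tested sites 13 had a negative log2FC, and 4 were lower, but all 4 lay nearer to the TSS of a neighbouring gene. Asb6, which encodes an ankyrin repeat protein with a SOCS box, had 2 of them, each close to a different TSS inside the gene. The strongest site of the window, CpG-island-like and centred 58 bp from an internal Asb6 TSS (chr2:30683530-30684209), held 338 and 342 reads in -HOT and 255 and 257 in +HOT. The groups were far apart compared with the differences within them. The log2FC was -0.41 (SE 0.094, edgeR adjusted p = 0.000968), but it turned to 0.031 with scaling along site strength and to 0.34 with scaling along strength and GC. Under the latter the site passed the test as higher (edgeR adjusted p = 0.00543).

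A second Asb6 site, in an intron and 94 bp upstream of another internal TSS (chr2:30682911-30683305), had 100 and 102 reads in -HOT and 58.0 and 49.1 in +HOT. It was lower with a log2FC of -0.90 (SE 0.19, edgeR adjusted p = 0.000442) and stayed so under all 12 alternatives, from -1.09 to -0.79. Of the 12 sites of the 9 genes that passed the test at any fold, it and the Prrx1 promoter site were the 2 that passed it under every alternative that gave an adjusted p.

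Downstream of Prrx2, towards Ptges, which encodes a prostaglandin E synthase, 2 further sites were lower. The intergenic site at chr2:30740511-30741343 held 197 and 163 reads in -HOT and 123 and 110 in +HOT, a log2FC of -0.64 (SE 0.14, edgeR adjusted p = 0.000387). Without -HOT replicate 1, its higher -HOT library, the adjusted p was 0.0875. The site over the untranslated region of Ptges (chr2:30746423-30746960) had 177 and 205 reads in -HOT and 133 and 139 in +HOT, a log2FC of -0.48 (edgeR adjusted p = 0.00504) that fell short of the threshold with scaling along site strength (-0.28, adjusted p = 0.146) or along strength and GC (-0.29, 0.128), with DESeq2 (0.0591) and without -HOT replicate 3 (0.0938). At both sites the +HOT libraries lay below the -HOT libraries without overlap.

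The sites at the starts of Prrx2 itself did not pass the test. The strongest, in a coding exon 490 bp downstream of an internal TSS (chr2:30700827-30701311) and CpG-island-like, held 32.4 and 51.8 reads in -HOT and 26.0 and 38.2 in +HOT. The groups overlapped, with a log2FC of -0.36 (SE 0.29, edgeR adjusted p = 0.438). The intronic sites with the widely shared match had log2FC of -0.029 and -0.36, with overlapping libraries. The 1 site of the window with a positive log2FC lay in Mettl11a, a gene for an N-terminal methyltransferase, and held 95.6 and 113 reads in -HOT and 118 and 136 in +HOT (log2FC 0.29, edgeR adjusted p = 0.216).

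The Twist genes showed no common direction. Twist1 (chr12:34642536-34644682, plus strand) had its main site 4623 bp upstream of the TSS (chr12:34637675-34638152), with 137 and 105 reads in -HOT and 127 and 137 in +HOT. These overlapped, with a log2FC of 0.096 (SE 0.15, edgeR adjusted p = 0.731). The site on the Twist1 start, centred 47 bp into the gene and CpG-island-like with 72.2% GC, had 29.4 and 31.8 reads in -HOT and 23.4 and 27.3 in +HOT. Its log2FC of -0.27 did not pass the test (edgeR adjusted p = 0.632).

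Twist2 (chr1:93698038-93744605, plus strand) held 3 of the 12 called sites, in opposite directions. The site in its coding exon, 410 bp downstream of the TSS (chr1:93698093-93698803), had 67.7 reads in each -HOT library and 38.4 and 42.9 in +HOT. It was lower with a log2FC of -0.74 (SE 0.23, edgeR adjusted p = 0.0162), a call that ended with DESeq2 (adjusted p = 0.102) and with scaling along strength and GC (0.115). It ended too without +HOT replicate 1 (0.0768), -HOT replicate 1 (0.134) or -HOT replicate 3 (0.0696). In the intron, the site at chr1:93715681-93716286 had 55.9 and 75.6 reads in -HOT and 95.1 and 115 in +HOT, and was higher by a log2FC of 0.70 (SE 0.19, edgeR adjusted p = 0.00628). Without -HOT replicate 1 this was 0.46 (adjusted p = 0.288), and the call also ended without +HOT replicate 3 (0.0741), with DESeq2 (0.0929) and with scaling along site strength (0.55, adjusted p = 0.0510).

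Another Twist2 site, 21197 bp into the gene (chr1:93719130-93719341) and only 212 bp wide, was called lost. It held 22.1 and 31.8 reads in -HOT and 12.4 and 11.7 in +HOT, so both +HOT values were lower but all rested on few reads. The log2FC was -1.12 (SE 0.39, edgeR adjusted p = 0.0364). The call ended when any 1 library was left out, with log2FC from -1.40 to -0.88, and under scaling along site strength (adjusted p = 0.0587) or along strength and GC (0.0518). It lay a little further into the gene than the intronic site that was higher, and it had no motif match where its neighbour had one.

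**Figure D4:**
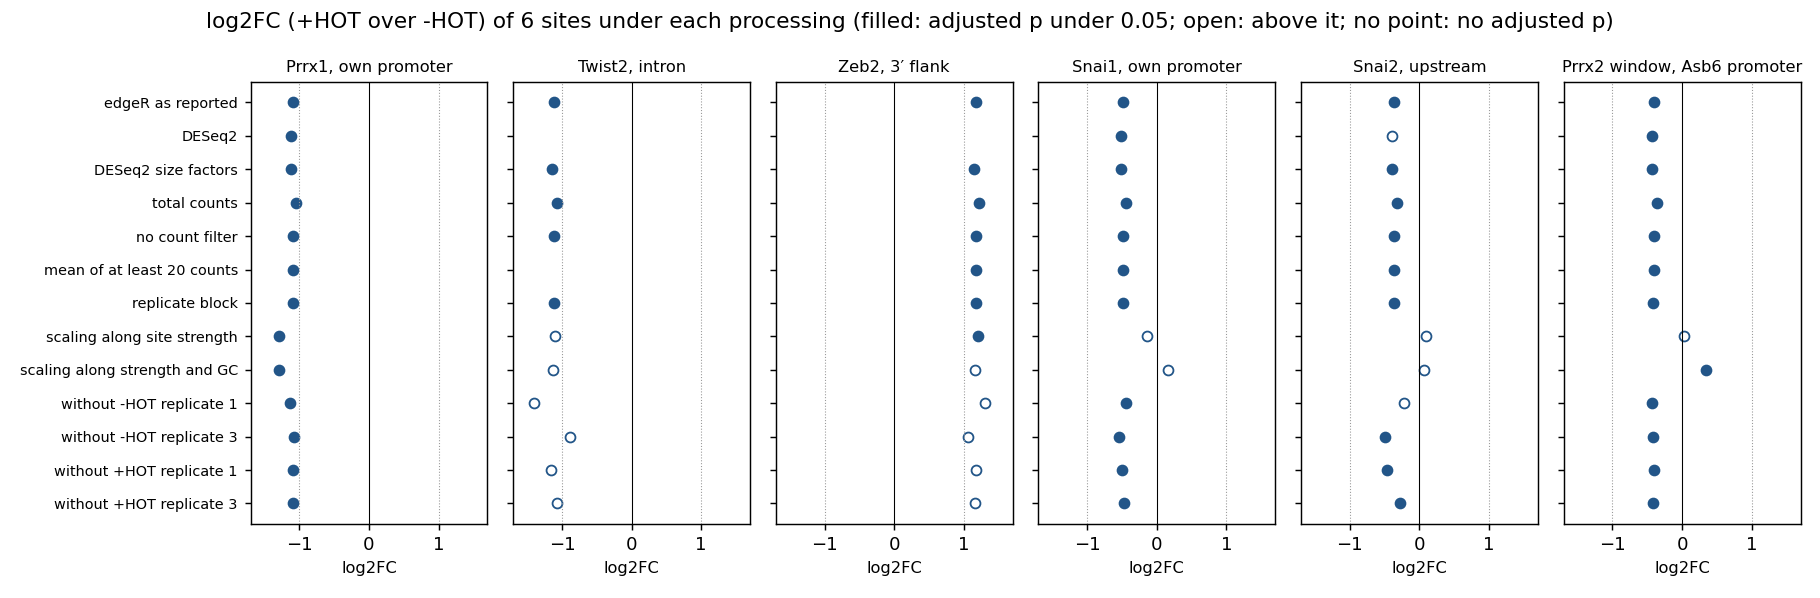
log2FC of 6 sites under the edgeR fit and its 12 alternatives, 1 panel a site, filled where the adjusted p was under 0.05 and without a point where none was given. The Prrx1 promoter site stays at or below -1.04 in every setting, while the Snai1, Snai2 and Asb6 sites move to near or above 0 with the scalings along site strength.

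The Snail genes had the strongest sites close to their starts. Snai1 (chr2:167363695-167368314, plus strand) had its main site 254 bp upstream of the TSS (chr2:167363095-167363788), CpG-island-like with a strong motif match. It held 285 and 267 reads in -HOT and 199 and 195 in +HOT, with the groups well apart. The log2FC was -0.49 (SE 0.10, edgeR adjusted p = 0.000408), but it was -0.14 (adjusted p = 0.443) with scaling along site strength and turned to 0.16 with scaling along strength and GC. The next Snai1 site, 5866 bp upstream, had 238 and 223 reads in -HOT and 199 and 183 in +HOT, a log2FC of -0.27 that missed the threshold (edgeR adjusted p = 0.0777).

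The remaining Snai1 sites spanned log2FC from -0.42 to 0.0065. The site 18166 bp upstream of Snai1, nearest to Rnf114, a ubiquitin ligase gene, had 102 and 85.6 reads in -HOT and 63.8 and 78.8 in +HOT. Its log2FC of -0.42 (edgeR adjusted p = 0.113) became -0.57 (adjusted p = 0.0343) with scaling along site strength and -0.61 (0.0240) along strength and GC. The groups did not overlap there.

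Snai2 (chr16:14705945-14709488, plus strand) had 2 sites, both upstream. The site 4224 bp from the TSS (chr16:14701223-14702219) was the strongest of all 47, with 390 and 324 reads in -HOT and 296 and 261 in +HOT. It was lower with a log2FC of -0.37 (SE 0.095, edgeR adjusted p = 0.00316), which turned to 0.093 with scaling along site strength and to 0.067 with scaling along strength and GC. Without -HOT replicate 1 it was -0.23 (adjusted p = 0.310), and with DESeq2 the adjusted p was 0.0722. The site 331 bp upstream had 144 and 171 reads in -HOT and 128 and 116 in +HOT, again without overlap, with a log2FC of -0.35 (edgeR adjusted p = 0.0720). With a replicate block this was -0.35 with an adjusted p of 0.0495.

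Zeb2 (chr2:44839154-44972915, minus strand) held the 1 gained site. It lay 11.0 kb beyond the 3′ end of the gene (chr2:44827979-44828312), and the nearest TSS was that of Gtdc1, a glycosyltransferase-like gene. It had 11.8 and 9.95 reads in -HOT and 24.7 and 25.0 in +HOT. Both +HOT libraries were above both -HOT libraries, at raw counts of 8 and 5 against 38 and 32. The log2FC was 1.17 (SE 0.42, edgeR adjusted p = 0.0396), and the call ended when any 1 library was left out (log2FC 1.06 to 1.30) and under scaling along strength and GC (1.16, adjusted p = 0.0617).

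Zeb2 had its own-promoter sites at internal TSS. The CpG-island-like one over the untranslated region (chr2:44968426-44968817) was centred 115 bp from a TSS and 4294 bp from the annotated gene start. It had 94.1 and 102 reads in -HOT and 72.9 and 56.2 in +HOT. It was lower with a log2FC of -0.58 (SE 0.19, edgeR adjusted p = 0.0231), but not by DESeq2 (adjusted p = 0.116), nor without -HOT replicate 1 (0.0916), -HOT replicate 3 (0.116) or +HOT replicate 3 (0.210). A second promoter site had 17.7 and 41.8 reads in -HOT and 16.3 and 21.1 in +HOT. These overlapped, with a log2FC of -0.60 (edgeR adjusted p = 0.268).

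Zeb1 (chr18:5591858-5775465, plus strand) held 8 weak sites, with 11.2 to 40.6 mean reads, and none passed the test. The 3 sites within 3000 bp of a Zeb1 TSS all had both +HOT libraries below both -HOT libraries, as had 8517 of the 17077 tested promoter sites of all genes. The one with the largest difference, 155 bp upstream of a TSS inside the annotated gene, had 30.9 and 19.9 reads in -HOT and 16.3 and 10.1 in +HOT, a log2FC of -0.95 (SE 0.39, edgeR adjusted p = 0.0771). Without +HOT replicate 1 it was -1.35 (adjusted p = 0.0404). The site 985 bp downstream of a TSS held 33.8 and 41.8 reads in -HOT and 30.0 and 18.7 in +HOT (log2FC -0.59, edgeR adjusted p = 0.192, and -0.99 with an adjusted p of 0.0476 without +HOT replicate 1).

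The strongest Zeb1 site, intronic and 8043 bp from the annotated gene start, ran the other way. It had 39.7 and 21.9 reads in -HOT and 54.7 and 46.0 in +HOT, and its log2FC of 0.66 missed the threshold (SE 0.27, edgeR adjusted p = 0.0836). Its motif match was the best of the window, whereas the pair of promoter sites nearest to the gene start had none.

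Tcf21 (chr10:22537085-22539934, minus strand) had 1 site, 434 bp beyond its 3′ end (chr10:22536517-22536785). It held 25.0 and 5.97 reads in -HOT, from counts of 17 and 3, and 11.1 and 10.9 in +HOT. The -HOT libraries lay on either side of the +HOT libraries, so no direction could be read. The log2FC of -0.59 (SE 0.50, edgeR adjusted p = 0.459) became 0.86 without -HOT replicate 1.

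Summed over the sites of each window, CTCF reads were compared for the 9 genes and for 19470 protein-coding genes in all. The sums were lower at 4 of the 9 genes, beside 34.5% of all windows, and higher at none of them, beside 10.9%. The median over all windows was -0.12. At an unadjusted p under 0.05 none of the 9 was higher by edgeR, and none was called higher by DESeq2 either. The Prrx2 sums were 1234 and 1250 normalised reads in -HOT against 949 and 988 in +HOT, with log2FC -0.36 (SE 0.059, edgeR adjusted p = 3.38e-07). At Snai1 they were 747 and 711 against 584 and 578 (log2FC -0.33, edgeR adjusted p = 5.66e-05). At Snai2 they were 534 and 496 against 423 and 377 (log2FC -0.36, edgeR adjusted p = 0.000191). Over the gene body of Prrx2 alone, without the sites towards Asb6 and Ptges, the log2FC was -0.30 (adjusted p = 0.109), and with scaling along strength and GC it was -0.095 over the window (adjusted p = 0.185). At these 3 genes the groups were apart by far more than the libraries within them.

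The Prrx1 sum was also lower, at 218 and 225 in -HOT against 160 and 198 in +HOT, which gave a log2FC of -0.32 (SE 0.12, edgeR adjusted p = 0.0272). This call ended with DESeq2 (adjusted p = 0.193) and with library sizes from total counts (0.0659). It also ended without +HOT replicate 1 (log2FC -0.15), without -HOT replicate 1 (adjusted p = 0.0907) or without -HOT replicate 3 (0.0987), while Prrx2, Snai1 and Snai2 stayed lower when any 1 library was left out. With scaling along site strength the sums were lower at Prrx2 (-0.17) and Snai2 (-0.20), and with scaling along strength and GC at Prrx1 (-0.31) and Snai2 (-0.27). The Twist1 and Twist2 sums differed little between groups, with log2FC of 0.031 (SE 0.14, edgeR adjusted p = 0.877) and -0.024 (SE 0.12, edgeR adjusted p = 0.888). Zeb1, Zeb2 and Tcf21 gave -0.13, -0.29 and -0.61, none past the threshold, and Zeb2 was lower at -0.40 (adjusted p = 0.0497) without +HOT replicate 1. Over its gene body alone, without the gained site in the flank, Zeb2 was lower at -0.51 (adjusted p = 0.00886).

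**Figure D5:**
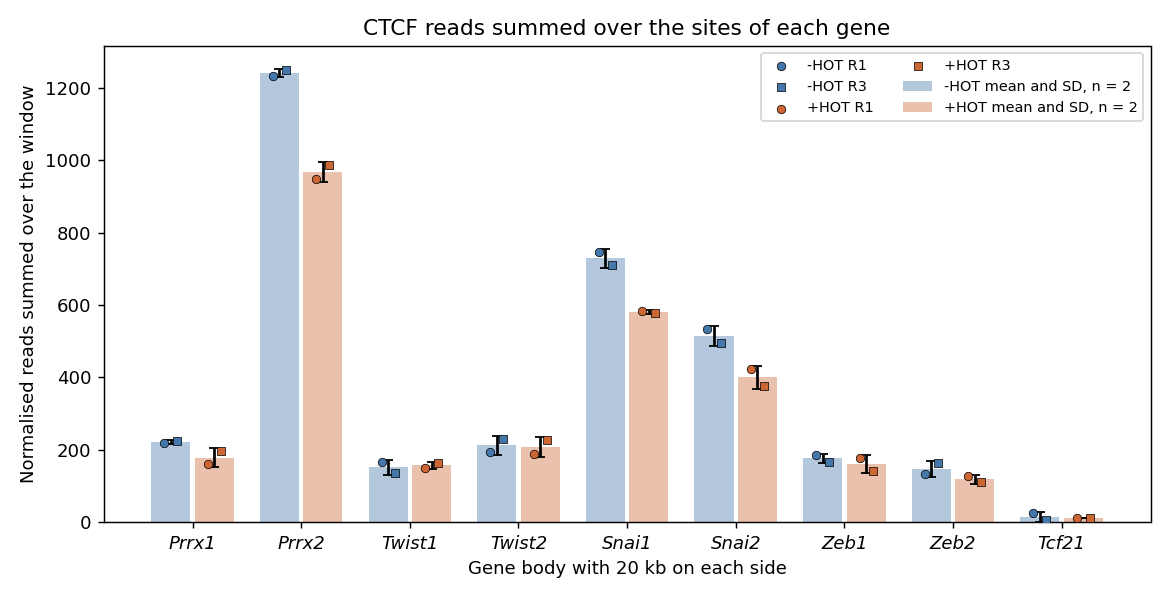
Normalised reads summed over the sites of each gene window, with bars for the mean and SD of 2 libraries in each group and points for the single libraries. Prrx1, Prrx2, Snai1, Snai2 and Zeb2 have both +HOT libraries below both -HOT libraries, and the Twist1, Twist2 and Zeb1 libraries overlap.

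Genes that act with these factors were examined in the same windows of 20 kb. Around 13 partner and corepressor genes, which include the E proteins, the Id inhibitors and the Ctbp corepressors, 110 tested sites had 2 gained, 2 lost, 5 higher and 10 lower, or 1.82%, 1.82%, 4.55% and 9.09%, with a median log2FC of -0.16. Over all tested sites these shares were 3.89%, 1.50%, 9.45% and 9.08%. Around 16 genes that the factors repress or induce, or that oppose them, such as Cdh1, Vim and the miR-200 genes, 88 tested sites had 0 gained and 0 lost by edgeR, and 0 of each by DESeq2 or by edgeR at an unadjusted p under 0.05. At any fold 5 were higher (5.68%) and 6 lower (6.82%), with a median of 0.063. Around 13 other factors of mesenchymal tissues, 56 tested sites had 1 gained, 2 lost, 2 higher and 13 lower, or 1.79%, 3.57%, 3.57% and 23.2%, with a median of -0.19. DESeq2 called 3 sites over the 3 lists gained or lost, where edgeR called 7. DESeq2 gave an adjusted p at 59645 sites of the table, and weak sites were left without one.

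Among the partners, the promoter site of Kdm1a, the histone demethylase that Snai1 recruits, was lost. It lay at chr4:136156970-136157270, 1103 bp from the TSS, with means of 42.7 ± 4.10 (SD, n = 2) normalised reads in -HOT and 16.4 ± 1.08 in +HOT, for a log2FC of -1.39 (SE 0.32, edgeR adjusted p = 0.000998). Tcf12, an E protein gene, also had a lost site upstream of its start, at a log2FC of -1.07 (edgeR adjusted p = 0.0272). The gained sites were both in the window of Tcf4, another E protein gene, at log2FC of 1.61 and 1.21 (edgeR adjusted p = 0.00663 and 0.0396). They rested on few reads, with -HOT means of 8.39 ± 0.61 and 10.6 ± 4.65 (SD, n = 2) and +HOT means of 26.2 ± 4.84 and 23.8 ± 0.52. DESeq2 called 0 sites of this list gained.

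Of the other factors, Tcf15, a helix-loop-helix gene of somites, had a gained site (log2FC 1.47, edgeR adjusted p = 0.00472). Its means were 12.4 ± 5.02 (SD, n = 2) normalised reads in -HOT and 33.4 ± 6.76 in +HOT, and DESeq2 called 0 sites of this list gained. The window of Snai3, the third member of the Snail family, had 2 lost sites, and both were nearest to the TSS of its neighbour Mvd, a gene of the cholesterol pathway. They had log2FC of -1.17 and -1.34 (edgeR adjusted p = 0.00355 and 0.000142).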

How the data were processed

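The authors made 4 CTCF ChIP-seq libraries from iMEF2 cells. Per the methods, reads were trimmed, mapped to mm9 with BWA, cleared of duplicates and blacklisted regions, with narrow peaks from MACS2. The sources used here name neither tool versions nor the counting tool, nor whether peaks came from single or pooled libraries. The deposited tables hold raw read counts per site, which the authors had not normalised. The same tables hold 4 columns of per-library values normalised by the authors, which were not used, and fold changes and p-values of the authors' own comparison and lists of gained and lost sites, which were not used either. Because R3 in the count columns stands as R2 in the titles, columns were assigned to groups only.

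The quasi-likelihood test was that of edgeR 4.0.16 under R 4.3.3, robustly fitted after TMM scaling and filterByExpr at a minimum count of 10, with Benjamini-Hochberg adjustment over 99560 sites. Dividing the size of the log2FC by the root of its F statistic gave the SE. For normalised reads, counts were divided by the library's effective size and multiplied by the mean of the 4 sizes. Chi-square per degree of freedom came to 1.09 for the -HOT libraries and 1.41 for those of +HOT, where sampling alone gives a value near 1, and the common dispersion had a root of 0.0476. Site reads ranged from 3126722 to 9280701. For window sums, counts were added over the sites of each gene and tested in the same way over 19470 protein-coding genes.

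Sites were placed by their centre on NCBIM37, the assembly of mm9, with GENCODE vM1. Site coordinates are printed as deposited, and their starts may count from 0; the coordinates of printed sequences count from 1. The genes and lists were chosen with earlier results of these data known. Sites named were every gained or lost site and, for each gene, the site with the most reads, the own-promoter site with the most reads and the site with the smallest p; others that are named were chosen after their values were seen. The fits were tested on simulated data in which only sites or windows with a mean of at least 20 counts were changed, so weaker sites were not covered. Alternatives were DESeq2 1.42.0, its size factors, total counts, 2 other count filters, a replicate block, scaling along site strength without and with GC, each library left out, and other windows and thresholds.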

Additional observations from a re-analysis of the deposited data

How the results depend on the processing

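The lost call at the Prrx1 promoter held under all 12 alternatives, and of the 12 sites past an adjusted p of 0.05 at any fold, 2 stayed past it wherever an adjusted p was given. DESeq2 gave an adjusted p at 28 sites of the 9 genes, and neither the lost Twist2 site nor the gained Zeb2 site was among them. Of those 28, 0 were gained and 1 was lost, with 1682 gained and 719 lost over the table and 3 called in the lists of other genes. A filter at a mean of 20 counts left 1 lost site at the genes and 928 over the table. Scaling along site strength gave 2408 gained sites over the table and 2 genes with lower sums. Scaling along strength and GC gave 0 gained and 1 lost site at the genes, 2219 gained over the table, a median log2FC of -0.31 and 2 genes with lower sums. Library sizes from total counts gave a median of -0.31. Of the 12 sites that passed the test, the scalings along strength turned the sign of 3: the Asb6 promoter site in the Prrx2 window (0.031 along strength, 0.34 along strength and GC), the Snai1 promoter site (0.16 along strength and GC) and the site upstream of Snai2 (0.093 and 0.067). Along strength and GC the Asb6 promoter site passed the test as higher (edgeR adjusted p = 0.00543). Sites that had not passed changed sign too, among them the Snai1 site 5866 bp upstream (0.041 and 0.033) and, along strength and GC, the Twist1 start (0.23) and the Prrx2 coding exon (0.060). The cause was not tested.

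At any fold, 2 sites of the genes were higher and 10 lower. Gene bodies alone held 0 gained sites, and 2 genes, Prrx1 and Zeb2, had lower sums. Snai1, Snai2 and Tcf21 had no site inside the gene body, so their sums could not be tested there. Windows of 50 kb held 2 gained sites, with a median log2FC of -0.21. At a mean of at least 20 normalised reads, 0 sites were gained and 1 was lost. With only sites nearest to a TSS of the 9 genes, an alternative chosen after seeing the data, 0 were gained. At the stricter motif threshold 51.1% of the 47 sites held a match. Leaving out each library in turn gave 0 to 0 gained and 1 to 3 lost sites at the genes, and medians from -0.37 to -0.29. The differences between R1 and R3 in -HOT and in +HOT had a correlation of 0.0304 over the sites. With chi-square per degree of freedom of 1.09 and 1.41, most of these differences were of the size that sampling gives. The correlation therefore cannot decide whether the numbers pair the libraries. A replicate block gave 1 gained and 2 lost sites at the genes, 3945 and 1548 over the table, and a median of -0.36, and brought the Snai2 promoter site past the threshold (adjusted p = 0.0495). Sites under 20 reads had a median SE of 0.41 at the 9 genes, so 2-fold changes there were not reliably detectable at this depth.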
